A study of Homo sapiens with 4 samples.

Results

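The Fanconi anaemia pathway repairs DNA interstrand crosslinks and protects stalled replication forks, and inherited loss of its genes causes Fanconi anaemia, with bone marrow failure and cancer risk. A nuclear core complex, which holds FANCA, FANCC, FANCE, FANCG and the ubiquitin ligase FANCL and is brought to DNA by the translocase FANCM, acts with the ubiquitin-conjugating enzyme UBE2T to attach ubiquitin to the paired proteins FANCD2 and FANCI. The modified pair then recruits repair factors, among them the nuclease FAN1. The genes described here were chosen by name as 10 members of this pathway, and 9 of them were found among the 15902 genes of the deposited intron tables, with 144 of the 142206 introns used. FAN1 had no entry under its name and was not analysed here.

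The study compared SUM159 cells, an established triple-negative human breast cancer line, after 12 hours with H3B-8800, a small molecule that inhibits the spliceosome, and after the same time with its vehicle DMSO. Polyadenylated RNA of the cytoplasmic fraction was sequenced in strand-specific libraries, 2 biological replicates per group (H3B-8800 and DMSO), and the dose of H3B-8800 is not given in the labels. Because 1 line was used, the values describe that line, and RNA kept in the nucleus was not measured. For each intron of 1 transcript per gene, reads inside it (intronic reads) were set against reads that spanned it (spliced reads).

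Library totals, as recovered from the deposited RPKM values, were 58000000 and 62000000 (H3B-8800) and 64000000 and 64000000 (DMSO) reads. The 9 genes together had 3177 and 3263 spliced reads in the treated libraries and 7731 and 7249 in the DMSO libraries, and 385 and 451 intronic reads against 230 and 244. The mesenchymal markers of the line were present (5290 to 6440 CPM in sum, read counts scaled by TMM to a common library size, with VIM at 5040 and 6020 on average in the 2 groups). VIM made up most of that sum. The other 4 were far lower on average in the H3B-8800 and DMSO groups: CAV1 263 and 246, AXL 46.5 and 106, CD44 21.9 and 10.4, and ZEB1 8.32 and 7.92 CPM. Of the luminal markers ESR1 and PGR were at 0 in every library and CDH1 and EPCAM had means below 1 CPM, while ERBB2 was at 32.3 and 38.0 CPM and GATA3 at 3.77 and 2.29 CPM on average in the H3B-8800 and DMSO groups. Of the leukocyte markers CD3E was at 0 in every library. Because 1 read can span several introns and count at all of them, a sum over a gene is not a number of molecules.

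The files listed all introns for FANCE (9) and FANCG (13), nearly all for FANCD2 (42 of 43), FANCI (35 of 37), FANCL (12 of 13) and UBE2T (5 of 6), 11 of 14 for FANCC, the first 9 of 42 for FANCA, and 8 of 21 for FANCM. Intron numbers follow the GENCODE 29 transcript paired with the listed RefSeq transcript, and coordinates are on hg38. Of the 144 introns, 43 hold or overlap an annotated exon of another transcript, in which case their intronic reads need not come from an unspliced intron.

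Sequences are shown for 4 short introns that GENCODE 29 transcripts retain whole, because they show what a retained or removed intron of these genes looks like. They run 5′ to 3′ on the transcribed strand, with the first 6 bases (5′ splice site) and the last 40 bases (branch point region, polypyrimidine tract and 3′ splice site, where the SF3B complex that H3B-8800 binds acts) in capitals. FANCG intron 11 lies at chr9:35075083-35075278, FANCG intron 1 at chr9:35079242-35079440, UBE2T intron 5 at chr1:202333094-202333236 and FANCL intron 10 at chr2:58162948-58163028, all on the minus strand.
FANCG intron 11: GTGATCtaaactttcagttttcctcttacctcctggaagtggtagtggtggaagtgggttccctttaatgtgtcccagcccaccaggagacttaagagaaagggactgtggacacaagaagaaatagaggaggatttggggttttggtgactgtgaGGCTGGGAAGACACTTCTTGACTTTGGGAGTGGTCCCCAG
FANCG intron 1: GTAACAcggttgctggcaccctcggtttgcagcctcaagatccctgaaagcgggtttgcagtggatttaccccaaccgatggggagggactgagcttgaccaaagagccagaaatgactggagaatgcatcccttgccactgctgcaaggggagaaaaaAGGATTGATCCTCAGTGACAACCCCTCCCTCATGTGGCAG
UBE2T intron 5: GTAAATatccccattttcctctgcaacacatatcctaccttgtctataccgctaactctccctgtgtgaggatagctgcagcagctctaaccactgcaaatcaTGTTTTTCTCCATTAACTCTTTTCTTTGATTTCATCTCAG
FANCL intron 10: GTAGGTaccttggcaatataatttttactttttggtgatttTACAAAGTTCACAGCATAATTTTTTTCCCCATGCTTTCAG
FANCG intron 11 had 15 and 15 intronic reads in the treated libraries and 2 and 5 in the DMSO libraries, while its spliced reads were 8 and 26 against 91 and 75. In UBE2T intron 5 the intronic reads were 18 and 26 against 9 and 6. Both H3B-8800 libraries thus lay above both DMSO libraries in these 2 introns. The share of all introns with this separation is not given here. The other introns printed showed no such separation: FANCG intron 1 had 4 and 0 intronic reads in the treated libraries and 2 and 2 in the DMSO libraries, and FANCL intron 10 had 0 in all 4 libraries, with 2 and 5 spliced reads against 6 and 11. Pyrimidines made up 77.5% of the last 40 bases in UBE2T intron 5, 62.5% in FANCL intron 10, 55.0% in FANCG intron 1 and 47.5% in FANCG intron 11.

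Spliced RNA of most of the pathway fell after H3B-8800. Spliced reads per gene passed the test as lower for 7 of the 9 genes (edgeR quasi-likelihood test, with p adjusted by Benjamini-Hochberg over 9468 genes and a threshold of 0.05) and as higher for none, where 32.7% of all genes tested were called lower and 32.8% higher. On the log2 scale the median change was -1.01 over the 9 genes and 0.01 over all genes. In all 9 genes both H3B-8800 libraries lay below both DMSO libraries, which held for 40.8% of all genes tested. FANCG fell most, to 24.0% of its DMSO level, and FANCD2 and FANCI followed, while FANCE and FANCM did not pass. In bulk RNA, less RNA per cell and fewer cells that carry it cannot be told apart.

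**Figure D1:**
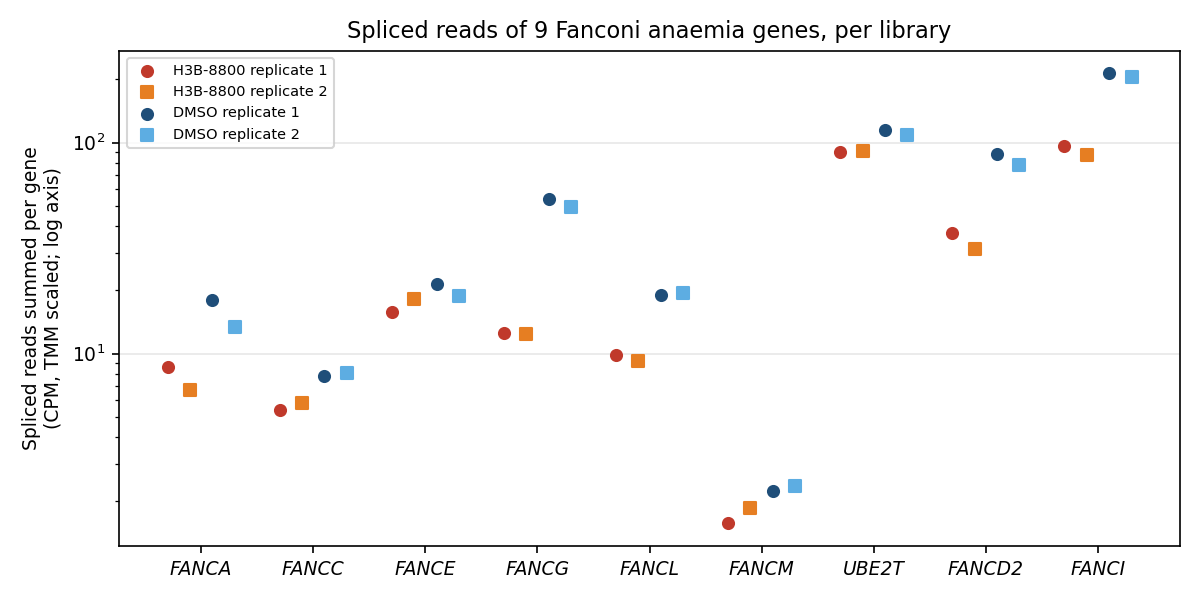
Spliced reads summed over the listed introns of each gene, in CPM on a log axis, with 1 point per library. Both H3B-8800 libraries lie below both DMSO libraries for each of the 9 genes, and the gap is widest for FANCG (12.5 and 12.4 CPM against 53.8 and 49.5).

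Within the core complex, FANCG, an adaptor that binds FANCA, had 143 and 153 spliced reads in the treated libraries and 772 and 715 in the DMSO libraries. The 2 treated libraries were almost equal and far below the controls, at 12.4 ± 0.0787 CPM against 51.6 ± 2.98 (SD, n = 2 each). The change was -2.06 on the log2 scale (SE 0.10; edgeR quasi-likelihood test, adjusted p (Benjamini-Hochberg) = 3.46e-09), a 4.16-fold fall, and 1.42% of all genes tested ranked as low as or lower than FANCG. FANCA, the partner of FANCG, had 99 and 83 spliced reads against 259 and 192, or 7.67 ± 1.36 CPM against 15.7 ± 3.35 (SD, n = 2 each). FANCA changed by -1.03 (SE 0.20; edgeR, adjusted p (Benjamini-Hochberg) = 0.000423). Its fall was larger than the spread between replicates, but without H3B-8800 replicate 2 it was -0.85 with an edgeR adjusted p of 0.0505, and only the first 9 introns were counted.

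FANCC and FANCE form a bridge between the core complex and FANCD2, and their changes were small or did not pass. FANCC had 62 and 72 spliced reads in the treated libraries and 112 and 117 in the DMSO libraries, which gave 5.61 ± 0.29 CPM against 7.95 ± 0.217 (SD, n = 2 each). The groups did not overlap, and FANCC changed by -0.50 (SE 0.21; edgeR, adjusted p (Benjamini-Hochberg) = 0.0457), a call that was lost in each of 4 fits that left out 1 library (edgeR adjusted p from 0.0751 to 0.15) and in DESeq2 (adjusted p = 0.159). FANCC changed by -0.78 without its most-read intron (edgeR adjusted p = 0.00635), by -0.68 with library totals (0.0105) and by -0.29 without introns that overlap an annotated exon (0.385). FANCE had 180 and 225 spliced reads against 307 and 270, or 15.7 and 18.2 CPM against 21.4 and 18.7, so that the nearest libraries of the groups were close. FANCE did not pass, with a change of -0.24 (SE 0.13; edgeR, adjusted p (Benjamini-Hochberg) = 0.122). FANCE intron 5 alone gave 98 and 119 of its spliced reads in the treated libraries and 126 and 115 in the DMSO libraries, and without that intron the change of FANCE was -0.55 (edgeR adjusted p = 0.0128).

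FANCL, the ligase of the complex, had 113 and 114 spliced reads in the treated libraries and 273 and 278 in the DMSO libraries. Replicates lay close together at 9.54 ± 0.457 CPM against 19.1 ± 0.177 (SD, n = 2 each), and FANCL fell by 1.01 on the log2 scale (SE 0.14; edgeR, adjusted p (Benjamini-Hochberg) = 3.61e-05). FANCM, which anchors the complex to DNA, was the least abundant, with 18 and 23 spliced reads against 32 and 34 in 8 listed introns (1.71 ± 0.204 CPM against 2.29 ± 0.09, SD, n = 2 each). At this depth no change of FANCM was detectable: its estimate was -0.42 (SE 0.37; edgeR, adjusted p (Benjamini-Hochberg) = 0.342).

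The substrates of the complex, FANCD2 and FANCI, fell alike. FANCD2 had 429 and 388 spliced reads in the treated libraries and 1265 and 1133 in the DMSO libraries, or 34.4 ± 4.29 CPM against 83.3 ± 6.78 (SD, n = 2 each). The fall of FANCD2 was 2.43-fold (log2 change -1.28, SE 0.10; edgeR, adjusted p (Benjamini-Hochberg) = 9.88e-08). A near copy of part of the gene, the pseudogene FANCD2P2, lies on the same chromosome and could share reads with it, and the antisense gene FANCD2OS overlaps some of its introns. FANCI had 1104 and 1079 spliced reads against 3056 and 2943, or 91.8 ± 6.45 CPM against 208 ± 6.29 (SD, n = 2 each), a 2.28-fold fall (log2 change -1.19, SE 0.07; edgeR, adjusted p (Benjamini-Hochberg) = 7.11e-09). The difference between the changes of FANCD2 and FANCI was not tested.

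UBE2T, the conjugating enzyme, fell least of the 7 genes that passed. It had 1029 and 1126 spliced reads in the treated libraries and 1655 and 1567 in the DMSO libraries, or 90.4 ± 0.865 CPM against 112 ± 4.72 (SD, n = 2 each), a 1.24-fold fall (log2 change -0.31, SE 0.07; edgeR, adjusted p (Benjamini-Hochberg) = 0.000959). Counted per listed intron, which puts genes with many and few introns on 1 scale, UBE2T was the most abundant of the 9, at 23.0 and 21.7 CPM per intron in the DMSO libraries. FANCI came next at 6.08 and 5.83 and FANCG after it at 4.13 and 3.81 CPM per intron. FANCE, FANCD2, FANCA and FANCL followed in that order, between 2.37 and 1.48 CPM per intron in the DMSO libraries, and neighbours in this order overlapped. FANCC (0.709 and 0.737) and FANCM (0.279 and 0.294) were lowest. With H3B-8800 FANCG dropped to 0.960 and 0.951 CPM per intron, below FANCE at 1.74 and 2.02.

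With scaling to library totals in place of TMM, the median change of all genes moved from 0.01 to -0.16, and 8 of the 9 members, FANCE now among them, passed as lower. Over all 9468 genes tested, 3927 then passed as lower and 2230 as higher, against 3097 and 3102 with TMM.

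The falls were spread along the genes. At single introns, spliced reads could be tested for 103 of the 144 introns (mean of at least 10 spliced reads). Of these, 67 passed as lower and 0 as higher (edgeR quasi-likelihood test), against 24.0% and 19.4% of all 66136 introns tested. This minimum was a mean over all 4 libraries, so DMSO reads alone could carry an intron past it. The count of 67 is therefore not independent of the filter, which all introns tested also passed. At an unadjusted p under 0.05, 75 of the 103 passed, and the estimate was below 0 at 100 of the 103. For neither count is the share over all introns given here. Introns of 1 gene can share reads and are not independent, and 35 of the 103 lie in FANCI and 25 in FANCD2. The median was -1.16 over the 103 introns and -0.05 over all. All 12 tested introns of FANCG passed, with changes from -3.22 at intron 9 (4 and 2 spliced reads against 38 and 32) to -1.28 at intron 13 (16 and 17 against 50 and 47). FANCI had 26 of 35 introns called lower, FANCD2 19 of 25, FANCL 4 of 8, FANCA 3 of 6, UBE2T 2 of 5, FANCC 1 of 4, FANCE 0 of 7 and FANCM 0 of 1. Without DMSO replicate 1 or 2, 42 and 55 introns of the members passed as lower. Without either H3B-8800 library no intron of any gene passed at this level (smallest adjusted p 0.0916 and 0.0877), with 9979 and 10320 introns higher and 13829 and 13735 lower at an unadjusted p under 0.05.

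**Figure D2:**
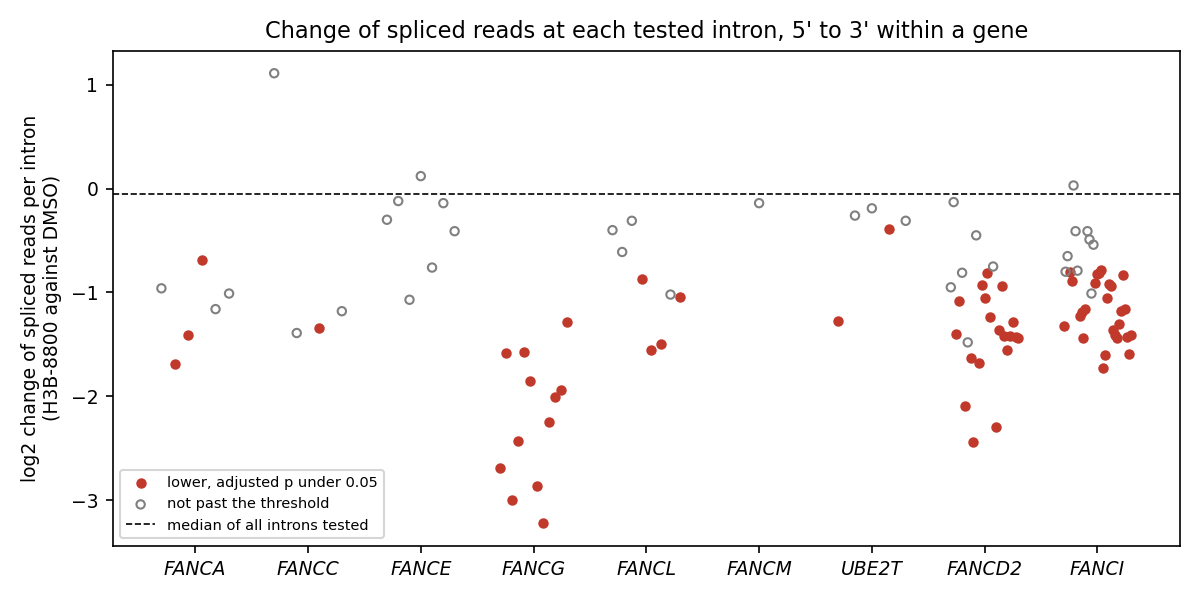
The log2 change of spliced reads at each of the 103 tested introns, ordered 5′ to 3′ within each gene, with filled points for introns that passed and a dashed line at the median of all introns tested (-0.05). Every point of FANCG is filled and lies at -1.28 or lower, while those of FANCE are all open.

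Counts differed several-fold between introns of a gene. The most-read FANCI intron was the last, intron 37, with 165 and 195 spliced reads in the treated libraries and 602 and 554 in the DMSO libraries, and intron 36 followed with 94 and 110 against 379 and 362. In FANCD2 intron 38 had the most DMSO reads, with 40 and 30 spliced reads against 130 and 118, and intron 40 was 1 read higher in H3B-8800 replicate 2 (31). FANCG was read most at intron 7, with 46 and 27 spliced reads against 160 and 160. In FANCI and FANCG the same intron thus carried the most spliced reads in all 4 libraries.

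**Figure D3:**
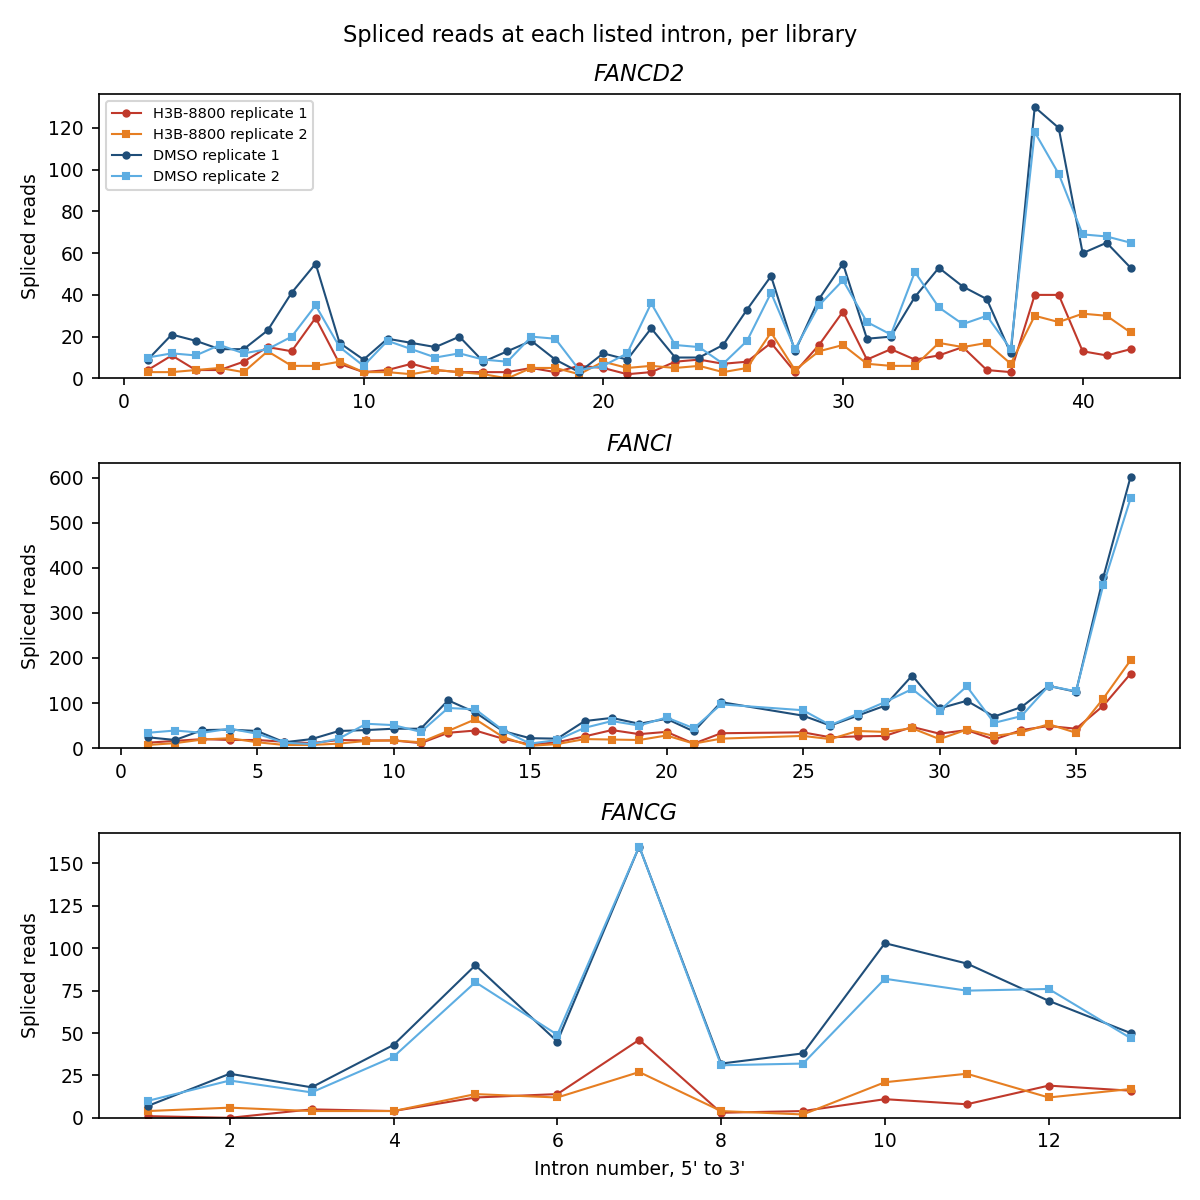
Spliced reads at each listed intron of FANCD2, FANCI and FANCG, not scaled, with 1 line per library and the intron number on the horizontal axis. The DMSO lines run above the H3B-8800 lines at most introns, and in FANCG all lines peak at intron 7 (160 and 160 in the DMSO libraries, 46 and 27 with H3B-8800).

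The 7 genes with at least 9 listed introns, all but FANCM and UBE2T, were also split along their length, and spliced reads over the last introns were divided by those over the first. In FANCI, over 11 introns at each end, this quotient was 3.38 and 4.46 in the treated libraries and 5.38 and 5.03 in the DMSO libraries, so the treated libraries were lower. In FANCG, over 4 introns at each end, it was 5.40 and 4.22 against 3.33 and 3.37, so the treated libraries were higher. FANCC, over 3 introns at each end and few reads, had 0.708 and 0.90 against 1.0 and 2.06. The groups overlapped in the other genes: FANCD2 (1.99 and 3.70 against 2.55 and 3.43), FANCA (1.57 and 2.71 against 1.77 and 2.44), FANCE (2.13 and 4.56 against 2.71 and 3.69) and FANCL (1.07 and 0.478 against 1.25 and 0.857). These quotients were not tested, and they were not computed for other genes.

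Use of single introns relative to the rest of their gene was tested for 102 introns of the members, and none passed (edgeR diffSpliceDGE, Benjamini-Hochberg adjusted over 65094 introns). At the adjusted threshold 0.719% of all introns tested were called. At an unadjusted p under 0.05 there were 8 of the 102, a level for which the share of all introns is not given here. FANCI intron 13, with 39 and 64 spliced reads in the treated libraries and 79 and 86 in the controls, had the smallest adjusted p, 0.0838. It was followed by 0.118 for FANCC intron 3, with 21 and 13 spliced reads in the treated libraries and 10 and 9 in the DMSO libraries, and 0.126 for UBE2T intron 1, with 17 and 24 against 51 and 69. In the separate test of spliced reads per intron, without regard to the rest of the gene, 3 introns had an estimate above 0, none of which passed: FANCC intron 3 (1.11, edgeR adjusted p = 0.0762), FANCE intron 5 (0.12) and FANCI intron 6 (0.03). These introns were chosen after their values were seen.

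After H3B-8800 a larger part of the reads of these genes was intronic. Over the 9 genes together the intronic share was 10.8% and 12.1% of intronic plus spliced reads in the treated libraries and 2.89% and 3.26% in the DMSO libraries. Over all introns of the files it was 8.19% and 8.24% against 4.23% and 4.24%. Both treated libraries lay above both controls for 8 of the 9 members, and 77.2% of the 7566 genes tested for the ratio showed the same; FANCC overlapped. With 2 libraries against 2, an exact two-sided permutation test of a share cannot give a p below 0.33.

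**Figure D4:**
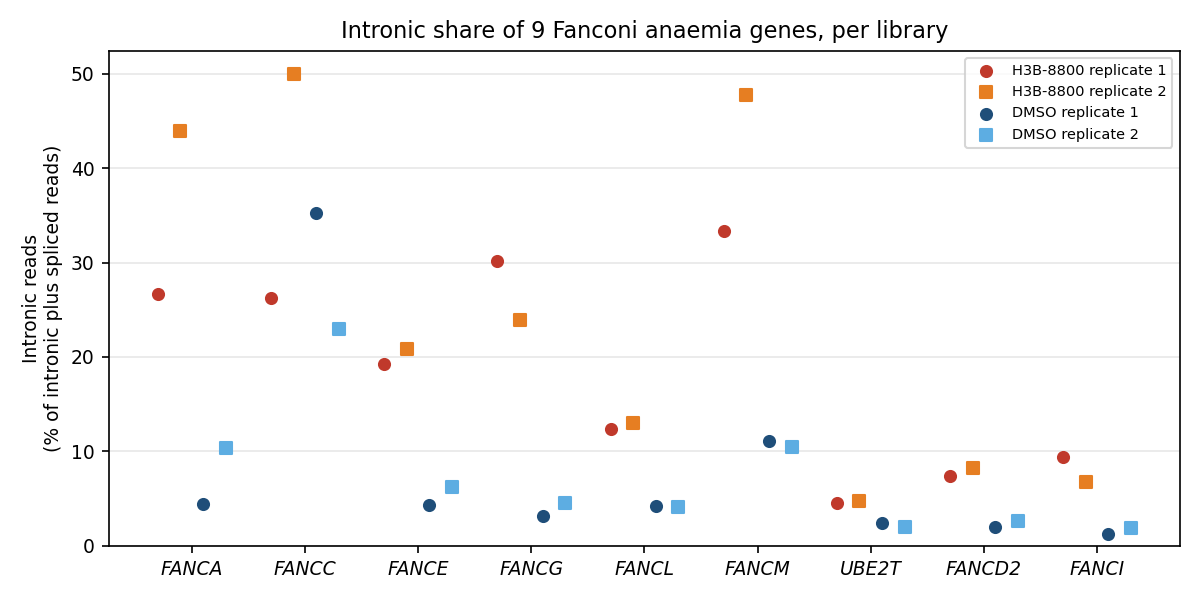
Intronic reads as a percentage of intronic plus spliced reads for each gene, with 1 point per library. The H3B-8800 points lie above the DMSO points for every gene but FANCC, whose groups overlap (the higher DMSO library is at 35.3% and the lower H3B-8800 library at 26.2%).

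The ratio of intronic to spliced reads per gene was then tested in 1 model over both kinds of read, an analysis chosen after seeing the data. It was higher for 7 of the 8 members with enough reads (edgeR quasi-likelihood test), against 65.4% of all genes tested, and lower for none, against 2.35%. The median change in the ratio was 2.01 on the log2 scale over the 8 members and 1.35 over all genes. Intronic reads themselves passed as higher for 4 of 8 members, FANCA, FANCE, FANCG and FANCI (edgeR, library totals), and none as lower, against 58.3% and 4.37% of all 7900 genes tested, with a median change of 0.81 over the members and 1.04 over all genes. With TMM scaling of the intronic reads the median of all genes became 0.02, none of the 8 passed, and FANCC, FANCD2, FANCG, FANCL and UBE2T had estimates below 0. With either H3B-8800 library left out none of the 8 passed for intronic reads (smallest adjusted p over all genes 0.0525 and 0.0544). In introns without an annotated exon, the ratio could be tested for 4 members and was higher for FANCD2, FANCE and FANCI.

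FANCG had the largest change in ratio of the members, 3.22 on the log2 scale (SE 0.34; edgeR, adjusted p (Benjamini-Hochberg) = 9.76e-07), beside a change of -2.06 in its spliced reads. The intronic reads of FANCG alone changed by 0.99 (SE 0.34; edgeR adjusted p = 0.0153), below the median of 1.04 over all genes. They did not pass in DESeq2 (adjusted p = 0.0853). Its intronic reads were 62 and 48 in the treated libraries and 25 and 34 in the DMSO libraries, and its intronic share 27.1% ± 4.5 against 3.84% ± 0.992 (SD, n = 2 each). Within FANCG, intron 8 (chr9:35076029-35076431, 403 bp) had 18 and 12 intronic reads against 5 and 6 and 3 and 4 spliced reads against 32 and 31, and its ratio rose by 4.54 (SE 0.85; edgeR adjusted p = 0.00077). FANCG intron 4 (chr9:35077400-35078140, 741 bp) had 14 and 9 intronic reads against 9 and 13, which overlap, and 4 and 4 spliced reads against 43 and 36; its ratio rose by 3.32 (SE 0.81; edgeR adjusted p = 0.00408). Both introns overlap an annotated exon of another transcript on the same strand, and in FANCG introns without such an exon the intronic reads were 9 and 7 against 4 and 5.

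FANCA ranked next in ratio, at 2.84 (SE 0.50; edgeR, adjusted p (Benjamini-Hochberg) = 0.000134), with 36 and 65 intronic reads in the treated libraries and 12 and 22 in the DMSO libraries and a share of 35.3% ± 12.2 against 7.35% ± 4.14 (SD, n = 2 each). Intron 5 (chr16:89808368-89810706, 2339 bp) gave 90.4% of the intronic reads of FANCA, 34 and 60 against 10 and 18, beside 4 and 3 spliced reads against 9 and 10. An annotated exon on the same strand lies inside it. The other 8 listed introns of FANCA had 2 and 5 intronic reads against 2 and 4. In the introns of FANCA without an annotated exon the mean share was 2.61% in the treated libraries and 1.20% in the controls, from 2 and 2 intronic reads against 0 and 4, which overlap.

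FANCI had 114 and 78 intronic reads in the treated libraries and 37 and 56 in the DMSO libraries, a share of 8.05% ± 1.85 against 1.53% ± 0.474 (SD, n = 2 each), and a ratio change of 2.50 (SE 0.29; edgeR, adjusted p (Benjamini-Hochberg) = 2.08e-06). In introns of FANCI without an annotated exon, intronic reads were 52 and 27 against 12 and 6, and the ratio change was 3.53 (edgeR adjusted p = 0.000217). Intron 37 (chr15:89315390-89316396, 1007 bp) had 16 and 28 intronic reads against 0 and 9 (ratio change 3.93, SE 0.73; edgeR adjusted p = 0.000722). Its ratio change was 2.88 without DMSO replicate 1 and 9.13 without DMSO replicate 2, when the remaining DMSO library had 0 intronic reads there. Also, exons of POLG lie on the opposite strand there, and the sources used here do not say whether counting used strand. Intron 34 (chr15:89307673-89312903, 5231 bp), with an annotated exon inside on the same strand, had 28 and 12 against 5 and 15, which overlap, and changed by 2.42 (SE 0.65; edgeR adjusted p = 0.00697, and 0.127 without H3B-8800 replicate 1).

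In FANCD2 the share was higher while intronic reads did not pass. Its intronic reads were 34 and 35 in the treated libraries and 25 and 31 in the DMSO libraries (change 0.39; edgeR, adjusted p (Benjamini-Hochberg) = 0.38), and the share was 7.81% ± 0.658 against 2.30% ± 0.513 (SD, n = 2 each). The ratio of FANCD2 changed by 1.85 (SE 0.34; edgeR adjusted p = 0.000173), beside the fall in its spliced reads. No single intron of FANCD2 had enough reads of both kinds to be tested. Its most-read intron inside was intron 17 (chr3:10049506-10052386), with 8 and 4 intronic reads against 6 and 6.

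FANCE, whose spliced reads did not pass, had more intronic reads: 43 and 59 in the treated libraries and 14 and 18 in the DMSO libraries (change 1.75; edgeR, adjusted p (Benjamini-Hochberg) = 0.000556). Its share was 19.3% and 20.8% against 4.36% and 6.25%, with a ratio change of 2.17 (SE 0.38; edgeR adjusted p = 0.000127). Intron 8 of FANCE (chr6:35460619-35462788, 2170 bp), with no annotated exon inside, had 17 and 33 intronic reads against 6 and 4, while its spliced reads were 10 and 8 against 10 and 14. The ratio there rose by 2.65 (SE 0.87; edgeR adjusted p = 0.0199, and 0.0576 in DESeq2).

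In UBE2T the intronic reads were 49 and 56 in the treated libraries and 40 and 32 in the DMSO libraries, and the share was 4.64% ± 0.136 against 2.18% ± 0.254 (SD, n = 2 each). Its ratio changed by 1.12 (SE 0.29; edgeR, adjusted p (Benjamini-Hochberg) = 0.00279), the smallest of the 7 that passed, and by 0.64 without the intron that overlaps an annotated exon (edgeR adjusted p = 0.133). That intron is intron 5, printed above, whose ratio rose by 2.20 (SE 0.47; edgeR adjusted p = 0.0019). Intron 6 (chr1:202331961-202333009, 1049 bp) had 21 and 22 intronic reads against 16 and 14 and changed by 1.10 (SE 0.44; edgeR adjusted p = 0.0463), a call lost in 7 of the alternatives run (adjusted p from 0.0747 to 0.145).

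FANCL had 16 and 17 intronic reads in the treated libraries and 12 and 12 in the DMSO libraries, a share of 12.7% ± 0.406 against 4.17% ± 0.0513 (SD, n = 2 each), and a ratio change of 1.73 (SE 0.47; edgeR, adjusted p (Benjamini-Hochberg) = 0.00395). Its intron 5 (chr2:58204227-58221941, 17715 bp), which overlaps an annotated exon on the same strand, had the most, 6 and 7 against 6 and 1. FANCM had 9 and 21 intronic reads against 4 and 4, too few for the test, and 89.5% of them lay in intron 1 (chr14:45136540-45137068, 529 bp), with 7 and 19 against 4 and 4. The share of FANCM, 40.5% ± 10.2 against 10.8% ± 0.414 (SD, n = 2 each), therefore rests on 1 intron, which had 2 and 0 spliced reads against 1 and 0.

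FANCC was the exception. Its intronic reads were 22 and 72 in the treated libraries and 61 and 35 in the DMSO libraries, so 1 treated library lay below both controls and the other above both, and the share was 38.1% ± 16.8 against 29.1% ± 8.65 (SD, n = 2 each). The ratio of FANCC changed by 0.65 (SE 0.51; edgeR, adjusted p (Benjamini-Hochberg) = 0.271), by 1.28 without H3B-8800 replicate 1 (adjusted p = 0.044) and by -0.21 without replicate 2 (adjusted p = 0.784). At single introns, FANCC intron 7 (chr9:95135503-95149922, 14420 bp), which overlaps an annotated exon of RNA5SP288 on the same strand, had 8 and 27 intronic reads against 16 and 8. Its spliced reads were 3 and 7 against 18 and 14. Its ratio rose by 2.19 (SE 0.81; edgeR adjusted p = 0.0351), lost in 5 of the alternatives run (adjusted p from 0.06 to 0.196). Intron 10 (chr9:95117391-95125085, 7695 bp), opposite an annotated exon, held the most intronic reads of FANCC, 10 and 28 against 18 and 13.

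Over single introns, the intronic-to-spliced ratio could be tested for 8 introns of the members, those of FANCC, FANCE, FANCG, FANCI and UBE2T given above. All 8 were higher, where 56.5% of the 9937 introns tested were higher and 2.88% lower, with a median of 2.54 against 1.62 over all. The minimum was a mean over all 4 libraries, so the reads of 1 group alone could carry an intron past it. By DMSO intronic reads alone, FANCE intron 8 (6 and 4), FANCI intron 37 (0 and 9), UBE2T intron 5 (9 and 6) and FANCG intron 8 (5 and 6) fell short. By H3B-8800 spliced reads alone, FANCG introns 4 (4 and 4) and 8 (3 and 4), FANCC intron 7 (3 and 7) and FANCE intron 8 (10 and 8) fell short. The count of 8 of 8 is therefore not independent of the filter, which all introns tested also passed. Depth limited the number of introns tested, since 83 of the 144 introns had no intronic read in either DMSO library and 61 had none in any library. No intron of the members had a mean of 20 reads of each kind, so none could be tested at that minimum, and without H3B-8800 replicate 1 or 2 4 and 3 introns passed in place of 8.

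Of a list of 30 other Fanconi anaemia genes, 26 were in the files and 25 were tested: 12 fell, 3 rose and 10 did not pass (edgeR, Benjamini-Hochberg adjusted over all genes), with a median of -0.34, where 32.7% of all genes fell and 32.8% rose, with a median of 0.01. With scaling to library totals 14 of the list were lower and 1 higher, against 3927 and 2230 of all 9468 genes. The 4 with the smallest adjusted p all fell. ERCC1, partner of the crosslink nuclease ERCC4, changed by -1.0 (edgeR adjusted p = 3.04e-08), BRCA1, of homologous recombination, by -1.17 (3.47e-08), the nuclease MUS81 by -1.35 (1.36e-07) and the helicase BRIP1 by -1.67 (6.45e-07). The 3 that rose were WDR48 (0.62, edgeR adjusted p = 1.53e-05), which activates the deubiquitinase USP1, the polymerase REV1 (0.38, 0.00292) and ERCC4 (0.62, 0.0419). BRCA2, PALB2 and FANCB, with changes of 0.05, 0.03 and -0.04 (all below 0 with library totals), did not pass. In FAAP100, which joins FANCL and FANCB in the core complex, spliced reads were 76 and 95 against 299 and 325 (change -1.60; edgeR adjusted p = 8.96e-07). USP1, which removes ubiquitin from FANCD2 and FANCI, had 489 and 477 spliced reads against 863 and 839 (change -0.55; edgeR adjusted p = 7.07e-05) and 650 and 704 intronic reads against 41 and 74, and its ratio rose by 4.39 (edgeR adjusted p = 6.4e-09). The values of BRCA2, PALB2, FANCB, FAAP100 and USP1 were seen before these genes were picked. The ratio was higher for 14 of 23 genes of this list, a share near the 65.4% of all genes, and lower for RMI1 alone.

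Genes of DNA replication moved in the same direction as the members. All 15 listed S phase genes fell, with a median of -1.16, among them CDC45 (-2.37), CDC6 (-2.06), MCM7 (-1.91) and TYMS (-1.39), with edgeR adjusted p values from 8.54e-11 to 9.17e-10 for these 4. Their summed level was 1600 and 1600 CPM with H3B-8800 and 3540 and 3550 in the DMSO libraries. Of 10 mitotic genes 9 rose and TOP2A fell (-0.89), with a median of 0.30, CENPF (0.98), CCNB1 (0.74) and PLK1 (0.65) among them, and their summed level was 3610 and 3540 CPM against 3230 and 3080. Of all genes tested, 32.7% were called lower and 32.8% higher. With scaling to library totals all 15 S phase genes still passed as lower, but only 4 of the mitotic genes passed as higher and BUB1 had an estimate below 0. With that scaling 3927 of all 9468 genes passed as lower and 2230 as higher. The part of cell cycle stage in the fall of the Fanconi anaemia genes was not tested.

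**Figure D5:**
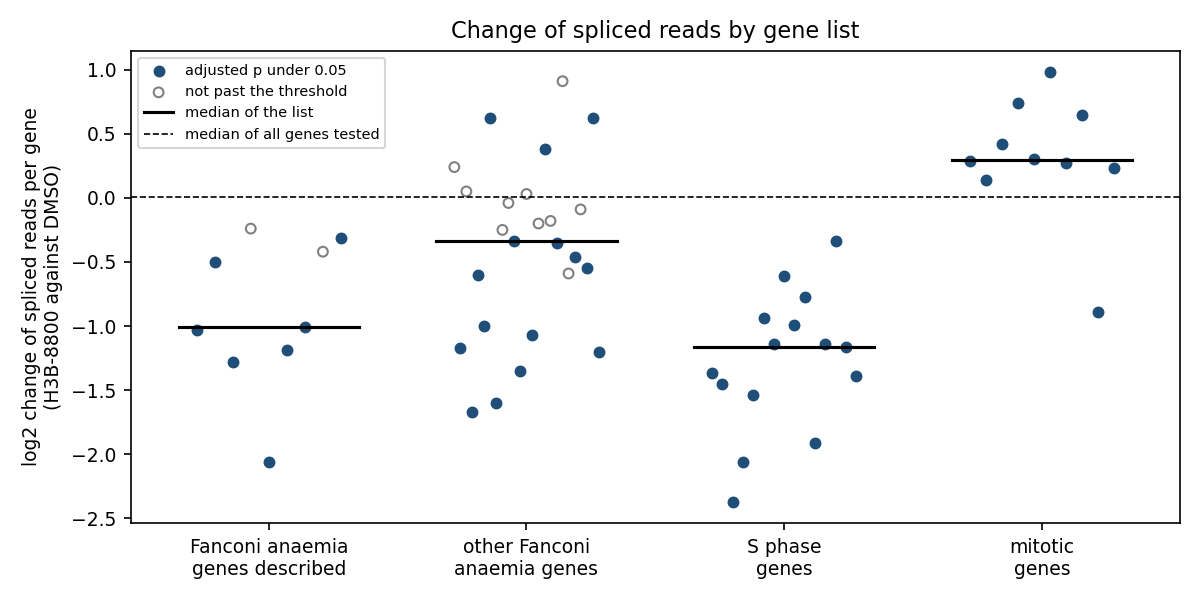
The log2 change of spliced reads per gene for the 9 Fanconi anaemia genes, the 25 other Fanconi anaemia genes tested, 15 S phase genes and 10 mitotic genes, with filled points for adjusted p under 0.05, a bar at each list's median and a dashed line at the median of all genes tested (0.01). The medians are -1.01, -0.34, -1.16 and 0.30.

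Promoter sequences from RefSeq (GRCh38.p14) are shown for FANCD2, FANCG and FANCL, 3 of the members that fell at least 2-fold. Each of the 3 has a 7-letter E2F-like motif in capitals. FANCA, which also fell at least 2-fold (2.05-fold) and holds a match, is not shown. Whether the motif bears on the fall was not tested. The search covered TTCCCGC or TTGGCGC or TTCGCGC or TTGCCGC, on either strand and with overlaps counted once per window, in windows of 250 bases before to 50 after each start. At least 1 of these motifs was in 13.0% of all 35116 promoter windows, or those of 15.3% of 27305 genes, and in those of 6 of the 8 members with an entry (FANCA, FANCC, FANCD2, FANCE, FANCG and FANCL, not FANCM or UBE2T; FANCI had no entry). FANCE, which holds the motif, did not pass, and UBE2T, which lacks these letters, fell. The stretches run 5′ to 3′ on the gene's strand and end 25 bases into the transcript: chr3:10026187-10026461 (plus) for FANCD2, chr9:35079918-35080192 (minus) for FANCG and chr2:58241301-58241575 (minus) for FANCL.
FANCD2: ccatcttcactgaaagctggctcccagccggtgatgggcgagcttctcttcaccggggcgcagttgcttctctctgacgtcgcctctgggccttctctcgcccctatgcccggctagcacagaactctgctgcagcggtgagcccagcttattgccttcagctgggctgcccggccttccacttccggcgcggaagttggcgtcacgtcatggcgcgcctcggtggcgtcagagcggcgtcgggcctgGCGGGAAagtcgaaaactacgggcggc
FANCG: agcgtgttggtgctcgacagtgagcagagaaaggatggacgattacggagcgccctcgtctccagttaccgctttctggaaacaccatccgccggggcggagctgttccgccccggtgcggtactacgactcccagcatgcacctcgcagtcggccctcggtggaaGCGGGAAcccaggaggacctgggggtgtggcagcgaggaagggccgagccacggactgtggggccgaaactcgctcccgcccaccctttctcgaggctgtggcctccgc
FANCL: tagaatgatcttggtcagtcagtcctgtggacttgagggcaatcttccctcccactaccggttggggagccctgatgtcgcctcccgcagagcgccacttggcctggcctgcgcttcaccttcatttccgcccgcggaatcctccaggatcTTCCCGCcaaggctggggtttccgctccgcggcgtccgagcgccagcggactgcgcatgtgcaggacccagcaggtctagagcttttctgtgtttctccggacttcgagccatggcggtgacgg
In FANCD2 the match begins 2 bases before the start and runs across it into the transcript. It begins 84 bases before the start in FANCG and 99 before it in FANCL. A match is a description of letters and not a bound site.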

How the data were processed

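RNA of 4 libraries (2 H3B-8800, 2 DMSO) was analysed from intron tables that the authors deposited without a header. Per the submitters' processing notes, HISAT2 2.0.4 and the builds hg38 and mm10 were used; the way of counting reads and the use of strand in it are not given in the sources. Each table holds 2 read counts and an RPKM per intron as deposited by the authors; RPKM values served only to recover library totals. The second count minus the first was taken as spliced reads, a reading inferred from the values. Even numbers made up 70.9% to 72.3% of non-zero intronic counts, so both mates of a pair probably entered the counts, which makes reads not independent.

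Counts were tested with edgeR 4.0.16 (quasi-likelihood, R 4.3.3, limma 3.58.1) over all genes or introns, with Benjamini-Hochberg adjustment and a threshold of 0.05. Genes needed a mean of 1 CPM for spliced reads (TMM) or 10 intronic reads (library totals), and introns a mean of 10 reads of each kind tested. SEs were approximated from the fitted statistic. DESeq2 1.42.0, other scalings and filters, a replicate block and each library left out were alternatives. The ratio per gene, intron use and shares without annotated exons were chosen after seeing the data. For 18 introns no second count was given, which left 142206 of 142224. The tests were checked on simulated counts drawn independently, without the link between mates of a pair. There, intronic reads per gene and spliced reads per intron were scaled otherwise than in the main fits. No recovery rate from this check is given here.

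The series' design text calls the replicates biological; libraries of a group differed beyond counting noise (chi-square per degree of freedom of 3.8 and 3.52), so each counted as 1 sample. Members and lists were chosen with earlier results of these data known. Named by rule were all members, up to 3 introns per member by ratio p and the one with most intronic reads, and 4 genes per other list by adjusted p.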

Additional observations from a re-analysis of the deposited data

How the results depend on the processing

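For spliced reads per gene, 5 to 8 members were called lower and none higher under the 10 alternatives run. FANCD2, FANCG, FANCI, FANCL and UBE2T kept their call in each of them. For spliced reads per intron, DESeq2 called 34 member introns lower (7053 introns higher and 8978 lower over all) and library totals 8528 higher over all. Leaving out 1 library gave 0 to 55 member introns lower, 0 to 9860 introns higher and 0 to 12469 lower. For intronic reads per gene, TMM gave 0 members higher (1601 higher and 1589 lower over all genes), introns without an annotated exon gave 2 (2408 and 84), and DESeq2 192 lower genes. Leaving out 1 library gave 0 to 4 members, 0 to 4351 genes higher and 0 to 306 lower. At 0 calls, without H3B-8800 replicate 1 or 2, edgeR had 3428 and 3243 genes higher at an unadjusted p under 0.05. The TMM estimates of intronic reads turned negative for FANCC (-0.98), FANCD2 (-0.63), FANCG (-0.03), FANCL (-0.47) and UBE2T (-0.39). Intronic reads of FANCC also reversed with the replicate block (-0.04) and ranged from -0.98 to 0.63 with 1 library left out. For the ratio per gene, introns without an annotated exon gave 3 members higher of 4 tested (2535 higher and 45 lower over all genes) and DESeq2 112 lower genes. With 1 library left out FANCC ranged from -0.21 to 1.28. For the ratio per intron, a minimum of 20 reads left no member intron to test (0 higher, and 3188 over all) and DESeq2 5 (158 lower over all). Leaving out 1 library gave 3 to 7 member introns, 3689 to 5497 introns higher and 159 to 216 lower. Except where fewer libraries or introns were used, the cause was not tested.

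Same-numbered libraries deviated together only weakly (correlation 0.0487), and 2 pairs do not establish pairing. With the replicate block 7 members were lower in spliced reads, as without it, and 6 introns rather than 8 were higher in ratio. With few intronic reads per intron, depth limited what single introns could show.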
